A study of Bos taurus with 12 samples.

Results

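The 38 genes described here run the cell division cycle: the cyclins and cyclin-dependent kinases (CDKs) and their inhibitors, the RB and E2F proteins, the enzymes that copy DNA and supply its building blocks, the mitotic machinery, and the common proliferation markers MKI67 and TOP2A. They were taken by symbol from a list of cell cycle, replication and mitosis genes. All 38 were found among the 24616 genes of the table, each in a single row. Their expression was measured by RNA sequencing in the right ventricle of 12 wild-type Angus steers. All 12 were raised for 15 months at 2170 m (7120 ft) on grass hay with grain, were castrated, and were slaughtered at an age of 13 to 15 months, so chronic environmental hypoxia was common to every group and no lowland control is used here. Serial right heart catheterization, which gives the mean pulmonary artery pressure (PAP), and clinical signs put each animal in a group: hypoxia-tolerant with low PAP (6 animals), high PAP but healthy (called PH-healthy here, 3 animals), or high PAP with clinical heart failure (3 animals, named PH-failure). No animal gave more than 1 library. The comparisons of the PH groups with low PAP show how transcripts of the division cycle differ in a right ventricle that works against a high pressure, and the comparison of the PH groups with each other how they differ with failure.

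A cell enters the division cycle when D-type cyclins switch on CDK4 and CDK6, which phosphorylate the RB family and so release the E2F factors that transcribe the genes of DNA synthesis. Cyclin E and cyclin A with CDK2 then drive DNA replication, and cyclin B with CDK1 drives mitosis. The INK4 inhibitors (CDKN2 genes) block CDK4 and CDK6, while the CIP/KIP inhibitors (CDKN1 genes) bind a wider range of cyclin-CDK complexes. Adult heart muscle cells rarely divide and enlarge under pressure load, whereas fibroblasts, endothelial cells and immune cells of the same tissue can divide. Several of these genes also have roles outside division, such as DNA repair for PCNA.

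Values are RPKM, reads divided by exon length and by library depth, so levels can be compared between genes. The reads behind each value were recovered from the table, and the libraries held 14739237 to 31090198 mapped reads. Differences were tested with limma on log2(RPKM + 1) across all 11374 genes of at least 1 RPKM in at least 3 libraries, and a gene is called higher or lower at an adjusted p under 0.05. Fold changes are on that log2 scale, which understates changes of low genes. The calls leaned towards higher expression in the PH groups, and that lean depended on the scaling. The median gene stood 0.21 above low PAP in PH-failure and 0.18 in PH-healthy. Quantile normalization, which forces the same distribution on every library, moved these medians to -0.03 and -0.04. With it the calls over all genes went from 3190 higher and 658 lower to 1133 and 1418 in PH-failure, and from 3024 and 927 to 1424 and 1622 in PH-healthy. Cardiomyocyte markers, 12 of 12 of them tested, summed to between 57526.7 and 105997 RPKM. MYL7, an atrial myosin light chain, brought the 5 atrial markers to 3097.69 to 6784.18 RPKM in low PAP. This was above the 432.73 to 1850.52 RPKM of the 6 PH libraries. The other atrial markers did not share this drop as a set. Of the 4 tested, 1 was called lower in each PH group, and 2 differed upward in each. NPPA was highest in PH-failure replicate 1, at 246 RPKM. Markers of some other cell types moved with the PH groups, and those of others gave no call. Of the tested markers, none of 6 adipocyte, 3 neutrophil, 3 erythroid and 1 B and plasma cell markers was called in either PH group. Of all tested genes 28% were called higher in PH-failure and 26.6% in PH-healthy. Of 11 fibroblast markers 7 were called higher in PH-failure and 5 in PH-healthy, and of 9 tested macrophage markers 7 and 3. The counts were 4 and 4 of 10 endothelial markers, and 5 and 2 of 8 smooth muscle and pericyte markers. After quantile normalization these counts of higher calls were 5 and 5, 2 and 0, 3 and 2, and 3 and 1. The shares of all genes were then 9.96% and 12.5%. In each PH group 1 smooth muscle and pericyte marker was called lower, before and after quantile normalization. After it, 1 endothelial and 1 adipocyte marker were lower in PH-healthy. Of 8 tested T and NK cell markers 2 were called lower in PH-failure and 1 in PH-healthy. Of the cardiomyocyte markers 1 was higher and 4 lower in PH-failure, and 2 and 2 in PH-healthy. Of all tested genes 5.79% and 8.15% were called lower. After quantile normalization 4 and 1 of the T and NK markers were lower. The cardiomyocyte markers then had 1 higher and 0 lower in PH-failure and 2 and 0 in PH-healthy, so their lower calls depended on the scaling. Summed macrophage markers, for example, ran from 49.8 to 75.2 RPKM in low PAP, 70.8 to 99.5 in PH-healthy and 66.3 to 195 in PH-failure. The same sums for fibroblasts ran from 929 to 1205, 912 to 1575 and 1248 to 1951 RPKM, and for endothelial cells from 122 to 211, 186 to 216 and 212 to 277. None of the listed markers was at 0 in all libraries. Their part in the results was not tested, and in bulk tissue fewer cells of a type and less RNA per cell cannot be told apart. PH-failure replicate 3 stood apart from the rest, with 70.1 RPKM of summed erythroid markers (1.80 to 9.30 elsewhere), 41.96 of neutrophil markers (2.81 to 10.4 elsewhere) and the lowest cardiomyocyte sum. It also held the highest sums of macrophage (next 119 RPKM) and endothelial markers (next 219). Its summed adipocyte markers reached 1611 RPKM (291 to 602 elsewhere). Without it, 1283 genes were called higher and 257 lower in PH-failure, with 5 of the fibroblast, 1 of the macrophage, 1 of the endothelial and 3 of the smooth muscle and pericyte markers higher, and none of the T and NK or cardiomyocyte markers lower. These counts, and those of the wider lists without it, were chosen after seeing the data.

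The 38 genes fell into 3 bands of expression. Averaged over the 12 libraries, 11 lay under 1 RPKM, 14 between 1 and 5 RPKM, and 13 at 5 RPKM or above. The most abundant in low PAP was CDKN2C, the INK4 inhibitor p18, at 30.5 ± 3.76 RPKM (SD, n = 6), followed by CDK4 at 20.3 RPKM, TYMS at 17.3, RRM1 at 16.4 and CDKN1B at 16.3. The upper band held the inhibitors CDKN2C, CDKN1A and CDKN1B, with RB1, RBL2, PCNA, MCM7, RRM1 and TYMS. It also held CDK4, CDK6, CCND2 and CCND3, which act at entry into the cycle. Most proliferation and mitosis genes lay under 1 RPKM, while PLK1, BIRC5 and BUB1B averaged between 1 and 5 RPKM. MKI67, the antigen of dividing cells, was the least abundant of the 38 in low PAP at 0.2004 RPKM. For scale, 3 reads on a transcript of 1 kb equal 0.112 RPKM in low-PAP replicate 1. Constancy differed as widely as level. CDK4 varied 1.21-fold between the highest and the lowest of the 12 libraries and RBL2 1.31-fold, against 9.88-fold for MKI67 and 18.9-fold for the mitotic cyclin CCNB2.

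**Figure D1:**
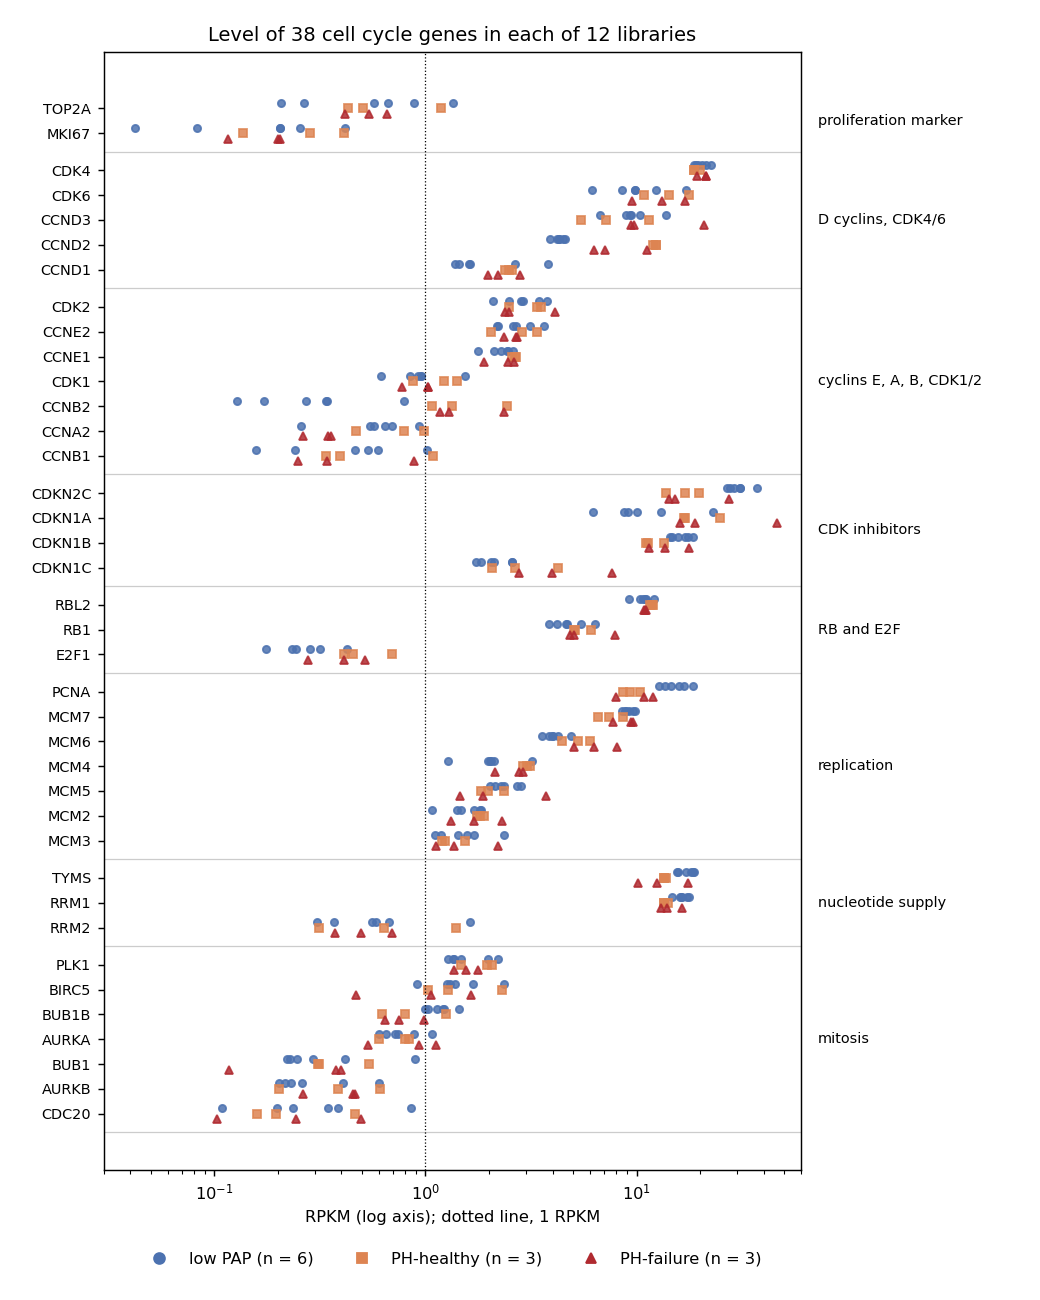
RPKM of each of the 38 genes (log axis) in each of the 12 right ventricle libraries, grouped by role and marked by group. CDKN2C, CDK4, TYMS, RRM1 and CDKN1B lie at the top, MKI67, CCNB2 and CDC20 lie mostly under 1 RPKM in low PAP, and CCND2 and CCNB2 are the genes whose 6 PH libraries all lie above the 6 low-PAP libraries.

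Of the 38 genes, 28 passed the minimum of 1 RPKM in 3 libraries. The other 10 (MKI67, TOP2A, CCNA2, CCNB1, E2F1, RRM2, BUB1, AURKA, AURKB and CDC20) had 5 to 176 reads per library and no limma test on RPKM. In PH-failure against low PAP, 5 were called higher (CCND2, CCNB2, CDKN1A, CDKN1C and MCM6) and 2 lower (CDKN2C and PCNA), or 25% of the 28, while 33.8% of all tested genes were called (28% higher and 5.79% lower). In PH-healthy against low PAP, 2 were called higher (CCND2 and CCNB2) and 3 lower (CDKN2C, PCNA and CDKN1B), or 17.9%, while 34.7% of all tested genes were called (26.6% higher and 8.15% lower). With both PH groups pooled against low PAP, a comparison that shares all its libraries with the former ones, 5 were called higher and 5 lower, or 35.7% beside 47.7% of all genes (37.3% higher and 10.4% lower). Quantile normalization gave 2 higher and 7 lower in PH-failure (9.96% and 12.5% of all genes), 2 higher and 7 lower in PH-healthy (12.5% and 14.3%), and 3 higher and 10 lower when pooled (17% and 21.1%). limma-voom on recovered reads, chosen after seeing the data, could test all 38 genes. It gave 5 higher and 3 lower in PH-failure (27.5% and 5.08% of all genes), 2 and 3 in PH-healthy (26% and 6.78%), and 5 and 6 when pooled (35.7% and 9.37%). Without PH-failure replicate 3, the PH-failure counts were 2 higher and 1 lower, beside 1283 and 257 of all 11374 tested genes. The median difference over the 28 genes was 0.02 in PH-failure and 0.10 in PH-healthy, below the 0.21 and 0.18 of all genes. The other genes called lower after quantile normalization were RRM1, TYMS and BUB1B in both comparisons, CDKN1B and PLK1 in PH-failure, and MCM7 in PH-healthy.

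**Figure D2:**
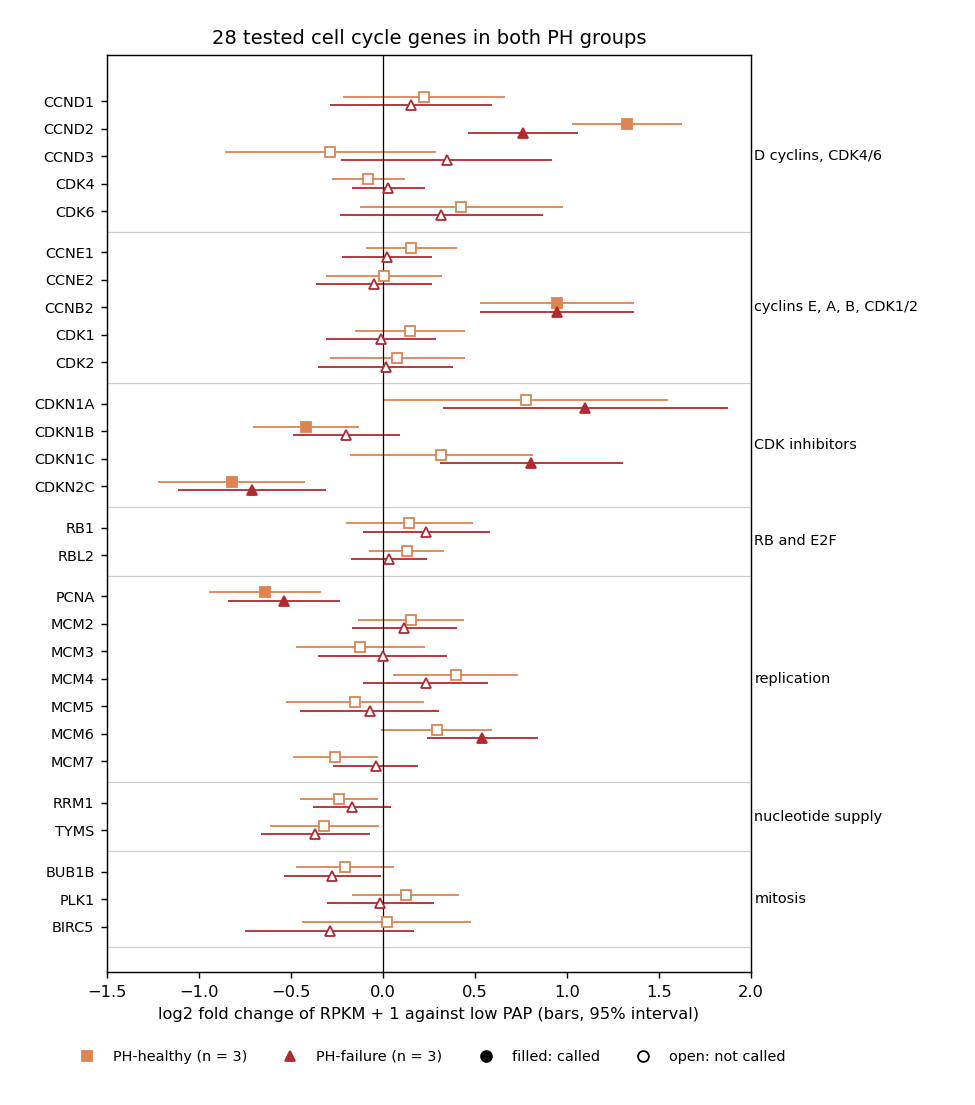
Difference in log2(RPKM + 1) between each PH group and low PAP for the 28 tested genes, with 95% confidence intervals from limma; filled symbols are called at an adjusted p under 0.05. The intervals of most genes span 0, and CCND2, CCNB2, CDKN2C and PCNA are called in both PH groups.

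Among the D cyclins and their kinases, 1 of 5 tested genes was called, and it was called in both PH groups. The shares of all tested genes called were 33.8% in PH-failure and 34.7% in PH-healthy. CCND2, cyclin D2 (ENSBTAG00000016649, chromosome 5, 106253906 to 106276819 in the table's own coordinates), lay between 3.91 and 4.59 RPKM in the 6 low-PAP libraries, with a median of 4.29. In PH-healthy it was at 12.4, 12.01 and 12.3 RPKM and in PH-failure at 7.12, 11.2 and 6.30 RPKM. Every PH library lay above every low-PAP library, and the low-PAP and PH-healthy libraries were each tightly grouped. The mean rose from 4.29 ± 0.234 (SD, n = 6) to 12.3 ± 0.218 RPKM in PH-healthy (SD, n = 3), a log2 difference of 1.33 (SE 0.14, adjusted p = 0.000135). In PH-failure it was 8.19 ± 2.601 RPKM (SD, n = 3), a log2 difference of 0.76 (SE 0.14, adjusted p = 0.00331). Within library series 55 and 56, a numbering in the library names that also separates sequencing lanes, the differences were 1.28 and 1.38 in PH-healthy and 0.43 and 0.95 in PH-failure. In series 55 PH-failure is 1 library, replicate 3, and in series 56 PH-healthy is 1 library, replicate 1. Differences of these groups within these series, here and below, thus each set 1 PH animal against 3 low-PAP animals. The CCND2 gain had the same direction in each series. It was also called under every other setting tried, with a log2 difference of 0.47 in PH-failure and 1.09 in PH-healthy after quantile normalization.

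The other genes of this step gave no call. CCND1, cyclin D1, lay at 1.37 to 3.82 RPKM in low PAP (median 1.61), at 2.48, 2.39 and 2.57 in PH-healthy and at 2.79, 2.22 and 1.98 in PH-failure. These ranges overlapped, and the PH-failure difference of 0.15 had a 95% interval of -0.29 to 0.59 (limma adjusted p = 0.569). CCND3, cyclin D3, ranged from 6.70 to 13.8 RPKM in low PAP and reached 20.9 RPKM in PH-failure replicate 3, against 9.38 and 9.73 in the other PH-failure libraries. CDK4 was the steadiest of all 38, at 18.8 to 22.6 RPKM in low PAP, 18.7 to 19.9 in PH-healthy and 19.4 to 21.4 in PH-failure. CDK6, its partner kinase, spread from 6.16 to 17.1 RPKM within low PAP alone.

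Of the cyclins E, A and B with CDK1 and CDK2, 1 of 5 tested genes was called, in both PH groups. This stood beside 33.8% of all tested genes in PH-failure and 34.7% in PH-healthy. CCNB2, cyclin B2, a partner of CDK1 in mitosis (ENSBTAG00000005269, chromosome 10, 51247754 to 51272733), was at 0.129 to 0.792 RPKM in low PAP, with a median of 0.306. PH-healthy libraries held 1.33, 2.42 and 1.08 RPKM and PH-failure libraries 1.17, 1.29 and 2.36 RPKM. No PH library overlapped the low-PAP range. In reads this was 5 to 32 per low-PAP library, 46 to 80 per PH-healthy library and 26 to 97 per PH-failure library. The group means of 1.61 ± 0.715 RPKM in PH-healthy and 1.61 ± 0.657 in PH-failure (SD, n = 3) were 4.72 and 4.71 times the low-PAP mean of 0.341 ± 0.237 (SD, n = 6). On the log2(RPKM + 1) scale the differences were 0.94 (SE 0.19, adjusted p = 0.0046) and 0.95 (SE 0.19, adjusted p = 0.00552). CCNB2 passed the minimum of 1 RPKM only through its PH libraries, so it could only enter that test by being higher there. The limma-voom test on recovered reads, which admits genes by reads, gave 2.32 (adjusted p = 0.0027) and 2.41 (adjusted p = 0.00309). Within library series 55 and 56 the differences in log2(RPKM + 1) were 1.14 and 0.68 in PH-healthy and 1.48 and 0.62 in PH-failure.

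CCNB2 did not move with the rest of its class. CCNB1, the other mitotic cyclin B, was at 0.158 to 1.01 RPKM in low PAP, at 0.394, 1.09 and 0.336 in PH-healthy and at 0.878, 0.342 and 0.250 in PH-failure. CDK1, the mitotic kinase, was at 0.617 to 1.54 RPKM in low PAP (median 0.938), at 1.23, 1.42 and 0.872 in PH-healthy and at 1.03, 0.773 and 1.02 in PH-failure. All PH libraries lay within the low-PAP range but PH-healthy replicate 2 of CCNB1, and for CDK1 the limma difference in PH-failure was -0.01 (95% interval -0.31 to 0.29, adjusted p = 0.952). CCNA2, cyclin A2, was at 0.257 to 0.927 RPKM in low PAP. Its 3 PH-failure libraries (0.263, 0.358 and 0.345) lay below its 3 PH-healthy libraries (0.790, 0.984 and 0.469). It had 7 to 45 reads per library, and limma-voom gave -0.78 for PH-failure against low PAP (adjusted p = 0.166). CCNE1 and CCNE2, the cyclins E of the step into S phase, stayed between 1.77 and 3.63 RPKM in all 12 libraries, and neither was called. CDK2, their kinase, ranged from 2.09 to 4.10 RPKM over the same libraries.

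All 4 CDK inhibitors among the 38 were called in at least 1 comparison, 2 of them higher (CDKN1A and CDKN1C) and 2 lower (CDKN2C and CDKN1B). By comparison, 2 were higher and 1 lower in PH-failure, 0 and 2 in PH-healthy, and 2 and 2 pooled. The shares of all tested genes called in these comparisons were 33.8%, 34.7% and 47.7%. CDKN2C, p18, an inhibitor of CDK4 and CDK6 (ENSBTAG00000011059, chromosome 3, 95924171 to 95928574), had 26.8 to 37.3 RPKM in low PAP with a median of 29.98. It had 13.8, 19.8 and 17.0 RPKM in PH-healthy and 27.3, 15.2 and 14.2 RPKM in PH-failure. All PH-healthy libraries lay below low PAP, and PH-failure replicate 1 lay at the lower edge of the low-PAP range. The mean fell from 30.5 ± 3.76 RPKM to 16.9 ± 3.02 in PH-healthy (log2 difference -0.82, SE 0.19, limma adjusted p = 0.00699) and to 18.9 ± 7.28 in PH-failure (-0.71, SE 0.19, adjusted p = 0.0147). Leaving out PH-failure replicate 3 (-0.55, adjusted p = 0.0790) or replicate 2 (-0.59, adjusted p = 0.0633) ended the PH-failure call. By library series, 55 then 56, the differences were -0.71 and -1.06 in PH-healthy and -1.06 and -0.53 in PH-failure.

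CDKN1A, p21, a CIP/KIP inhibitor that p53 induces (ENSBTAG00000008353, chromosome 23, 10560498 to 10568780), ranged widely. It had 6.24 to 23.1 RPKM in low PAP (median 9.57), 24.7, 16.8 and 16.9 RPKM in PH-healthy and 19.0, 16.1 and 46.1 RPKM in PH-failure. The groups overlapped through 1 high low-PAP library, and PH-failure replicate 3 was the highest of the 12. CDKN1A was called higher in PH-failure (1.10, SE 0.36, adjusted p = 0.0334) and in the pooled comparison (0.94, SE 0.29, adjusted p = 0.0192), and in PH-healthy it gave 0.78 (SE 0.36, adjusted p = 0.107). Without PH-failure replicate 3 the PH-failure difference was 0.65 (adjusted p = 0.187), and the pooled one 0.71 (adjusted p = 0.0395). Leaving out low-PAP replicate 1, 3, 4 or 5 also took the PH-failure call past the threshold, with differences of 1.06, 0.96, 1.05 and 1.08 and adjusted p-values of 0.0580, 0.0645, 0.0635 and 0.0559. So did quantile normalization (0.90, adjusted p = 0.0672), median-ratio scaling (0.86, adjusted p = 0.0611), no filter on low values (1.10, adjusted p = 0.0553) and a fit of only the groups compared (1.10, adjusted p = 0.0531). The pooled call was kept under all 20 settings tried. The differences within series 55 and series 56 were 0.52 and 1.21 in PH-healthy and 1.92 and 0.73 in PH-failure.

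CDKN1C, p57, the imprinted CIP/KIP inhibitor (ENSBTAG00000031184, chromosome 29, 49368786 to 49370785), had 1.73 to 2.57 RPKM in low PAP with a median of 2.08. It had 2.65, 4.25 and 2.06 RPKM in PH-healthy and 3.97, 2.77 and 7.68 RPKM in PH-failure. The PH-failure libraries all lay above low PAP. It was called higher in PH-failure (0.81, SE 0.23, limma adjusted p = 0.0209) and in the pooled comparison (0.56, SE 0.19, adjusted p = 0.0267). Both calls ended under quantile normalization (0.48, adjusted p = 0.131, and 0.25, adjusted p = 0.295). The PH-failure call also ended without PH-failure replicate 3 (0.47, adjusted p = 0.113), and the pooled one without PH-healthy replicate 2 (0.45, adjusted p = 0.0680), low-PAP replicate 1 (0.53, adjusted p = 0.0530) or low-PAP replicate 3 (0.55, adjusted p = 0.0507). The pooled difference without PH-failure replicate 3 was 0.39 (adjusted p = 0.0470). Split by library series 55 and 56, the differences were 0.25 and 0.34 in PH-healthy and 1.36 and 0.58 in PH-failure.

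CDKN1B, p27, the CIP/KIP inhibitor typical of resting cells (ENSBTAG00000018254, chromosome 5, 97577139 to 97582322), had 14.4 to 18.5 RPKM in low PAP with a median of 16.3. It had 11.1, 13.5 and 11.3 RPKM in PH-healthy and 13.6, 11.5 and 17.7 RPKM in PH-failure. The PH-healthy libraries lay below low PAP and the PH-failure libraries overlapped it. It was called lower in PH-healthy (-0.42, SE 0.13, limma adjusted p = 0.0301) and pooled (-0.31, SE 0.11, adjusted p = 0.0339), and gave -0.20 in PH-failure (SE 0.13, adjusted p = 0.254). The PH-healthy call ended without low-PAP replicate 1 (-0.38, adjusted p = 0.0567) or 3 (-0.40, adjusted p = 0.0596) and without PH-healthy replicate 1 (-0.37, adjusted p = 0.118) or 3 (-0.38, adjusted p = 0.102). The pooled call ended without any one of low-PAP replicates 1, 3 and 5, PH-healthy replicates 1 and 3 and PH-failure replicates 1 and 2, at adjusted p-values of 0.0507 to 0.0826. By library series, 55 then 56, the differences were -0.41 and -0.47 in PH-healthy and 0.07 and -0.32 in PH-failure.

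**Figure D3:**
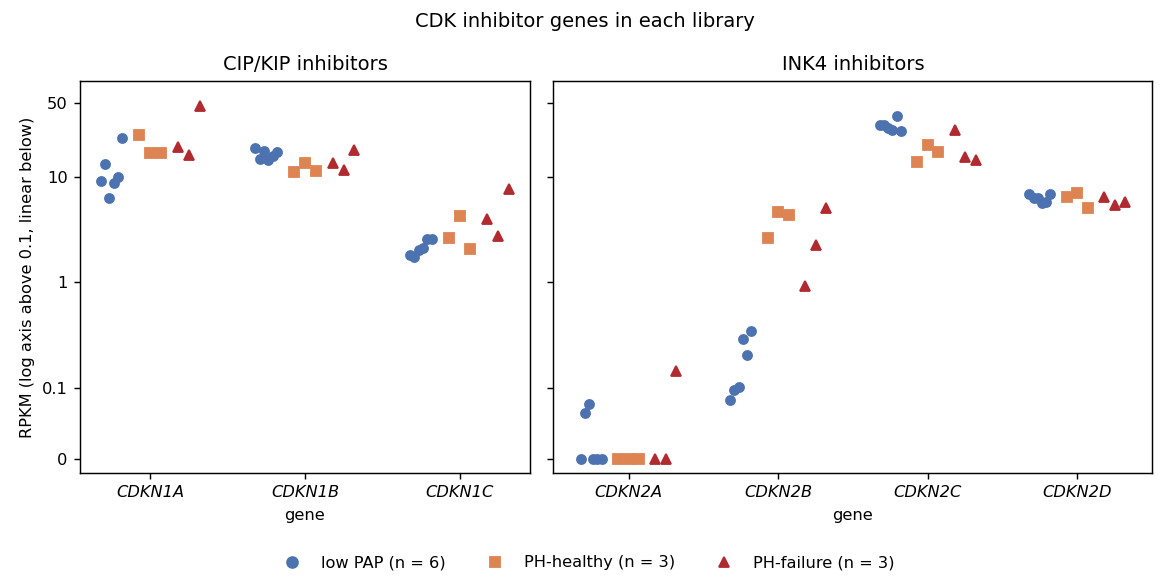
RPKM (log axis above 0.1, linear below) of the CIP/KIP genes and the INK4 genes, each point a library, marked by group. CDKN2C lies lower in most PH libraries than in low PAP, CDKN2B lies higher in all of them, CDKN1A and CDKN1C are highest in PH-failure replicate 3, and CDKN2A is at or near 0; the INK4 genes outside the 38 were chosen for this plot after their values were seen.

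The INK4 genes outside the 38 differed from CDKN2C. CDKN2B, p15 (ENSBTAG00000016412), was at 0.0838 to 0.345 RPKM in low PAP, at 2.65, 4.63 and 4.33 RPKM in PH-healthy and at 0.916, 2.24 and 5.02 RPKM in PH-failure. All 6 PH libraries lay above low PAP, and limma gave 2.01 (adjusted p = 0.000506) and 1.497 (adjusted p = 0.00308). Like CCNB2, CDKN2B passed the minimum only through PH libraries. On recovered reads limma-voom gave 4.47 and 3.82. CDKN2A, which encodes p16, had at most 2 reads in any library, and CDKN2D, p19, had 5.64 to 6.90 RPKM in low PAP.

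The RB family and E2F1 gave no call. RB1, the restraint on E2F that CDK4 and CDK6 relieve, had 3.83 to 6.32 RPKM in low PAP, 5.06 to 6.08 in PH-healthy and 4.86 to 7.90 in PH-failure. RBL2, p130, which holds E2F targets silent in resting cells, had 9.20 to 12.1 RPKM in low PAP. It had 11.6 to 11.9 RPKM in PH-healthy and 10.8 to 11.1 in PH-failure. E2F1, an activating E2F, had only 6 to 20 reads per library, at 0.176 to 0.423 RPKM in low PAP, 0.409, 0.691 and 0.454 in PH-healthy and 0.411, 0.517 and 0.278 in PH-failure. Its limma-voom difference in PH-healthy was 0.86 (adjusted p = 0.0607), which was not called. With a filter and pseudocount of 0.1 RPKM it was called higher in the pooled comparison (0.55, limma adjusted p = 0.049). RB1 overlaps P2RY5 in the table's coordinates, a gene that averaged 0.0549 RPKM.

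Among the 7 replication genes, PCNA was lower in both PH groups and MCM6 was higher in PH-failure. PCNA, the clamp that holds DNA polymerases on the template (ENSBTAG00000006065, chromosome 13, 47788529 to 47794602), had 12.8 to 18.4 RPKM in low PAP with a median of 15.2. It had 8.61, 10.4 and 9.28 RPKM in PH-healthy and 12.01, 7.97 and 10.9 RPKM in PH-failure. Every PH library lay below every low-PAP library. The mean fell from 15.3 ± 2.10 RPKM (SD, n = 6) to 9.42 ± 0.885 in PH-healthy (-0.64, SE 0.14, limma adjusted p = 0.00632) and to 10.3 ± 2.09 in PH-failure (-0.54, SE 0.14, limma adjusted p = 0.0148). The PH-healthy and pooled calls were kept under every setting tried, and the PH-failure call ended without PH-failure replicate 2 (-0.38, adjusted p = 0.0730). The differences within series 55 and series 56 were -0.44 and -0.90 in PH-healthy and -0.30 and -0.74 in PH-failure.

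The MCM2 to MCM7 proteins form the ring-shaped helicase that opens the DNA ahead of the polymerases, and their transcripts did not move together. MCM6 (ENSBTAG00000015172, chromosome 2, 61821904 to 61852264) had 3.56 to 4.88 RPKM in low PAP with a median of 4.00. It had 5.30, 4.41 and 6.05 RPKM in PH-healthy and 6.29, 5.03 and 8.11 RPKM in PH-failure, all of the latter above low PAP. It was called higher in PH-failure (0.54, SE 0.14, limma adjusted p = 0.0143) and pooled (0.42, SE 0.11, adjusted p = 0.0105), and gave 0.29 in PH-healthy (SE 0.14, adjusted p = 0.117). Quantile normalization ended both calls (0.22, adjusted p = 0.210, and 0.11, adjusted p = 0.398), and so did leaving out PH-failure replicate 3 for the PH-failure call (0.39, adjusted p = 0.0806). Split by library series 55 and 56, the differences were 0.32 and 0.27 in PH-healthy and 0.88 and 0.35 in PH-failure. No other MCM gene was called, but MCM7 was called lower in PH-healthy after quantile normalization. MCM4 gave 0.40 in PH-healthy (limma adjusted p = 0.0668) and MCM7 -0.26 (limma adjusted p = 0.0762), so the subunits nearest to a call pointed in different directions. MCM2 stayed at 1.07 to 2.31 RPKM in the 12 libraries, MCM3 at 1.11 to 2.35 and MCM5 at 1.45 to 3.72.

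Of the 3 genes of nucleotide supply, TYMS and RRM1 were called lower in the pooled comparison, beside 10.4% of all tested genes, and RRM2 was not tested. Quantile normalization called TYMS and RRM1 lower in PH-failure, in PH-healthy and pooled. Beside these, 12.5%, 14.3% and 21.1% of all genes were called lower with it. TYMS, thymidylate synthase (ENSBTAG00000007003, chromosome 24, 35935175 to 35945792), had 15.5 to 18.7 RPKM in low PAP with a median of 17.6. It had 13.5, 13.5 and 13.8 RPKM in PH-healthy and 17.5, 12.6 and 10.2 RPKM in PH-failure. PH-healthy lay below low PAP, and PH-failure replicate 1 lay within it. The pooled difference was -0.34 (SE 0.11, limma adjusted p = 0.0230), with -0.32 in PH-healthy (adjusted p = 0.0850) and -0.37 in PH-failure (adjusted p = 0.0528). Without low-PAP replicate 4 the pooled adjusted p was 0.0517. RRM1, the large subunit of ribonucleotide reductase (ENSBTAG00000013111, chromosome 15, 51801714 to 51843018), had 14.8 to 17.7 RPKM in low PAP (median 16.3), 13.5, 13.5 and 14.1 in PH-healthy and 16.4, 13.1 and 14.01 in PH-failure. Its pooled difference of -0.20 (SE 0.08, limma adjusted p = 0.0489) lay at the threshold and lost its call in 14 of 20 settings. Among these were leaving out any one of low-PAP replicates 1 to 5, PH-healthy replicates 1 to 3 and PH-failure replicates 2 and 3, at adjusted p-values of 0.0694 to 0.112. RRM2, the S-phase subunit, had 0.306 to 1.63 RPKM in low PAP, 0.313 to 1.40 in PH-healthy and 0.374 to 0.692 in PH-failure. Within library series 55 and 56 the TYMS differences were -0.30 and -0.34 in PH-healthy and -0.69 and -0.21 in PH-failure, and those of RRM1 were -0.20 and -0.29, and -0.18 and -0.18.

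The proliferation markers gave no call. MKI67 had 0.0419 to 0.414 RPKM in low PAP (median 0.205), 0.137, 0.413 and 0.285 in PH-healthy and 0.2004, 0.205 and 0.116 in PH-failure. TOP2A, the topoisomerase that untangles chromosomes before they part, had 0.207 to 1.35 RPKM in low PAP (median 0.617), 0.508, 1.18 and 0.429 in PH-healthy and 0.657, 0.540 and 0.415 in PH-failure. Every PH library of both genes lay within the low-PAP range. Neither passed the minimum for limma on RPKM. With limma-voom on 11 to 113 reads per library, MKI67 differed by 0.06 in PH-failure (adjusted p = 0.953) and 0.64 in PH-healthy (adjusted p = 0.390). For TOP2A, with 26 to 176 reads, the differences were -0.07 (adjusted p = 0.934) and 0.20 (adjusted p = 0.794). The within-group spread of these genes was large, with a coefficient of variation in low PAP of 66.1% for MKI67 and 64.4% for TOP2A, against 5.44% for CCND2.

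The mitosis genes likewise gave no call in the 3 that were tested, but some were called after quantile normalization. It called 2 of the 3 lower in PH-failure (BUB1B and PLK1), 1 in PH-healthy (BUB1B) and 2 pooled. Beside these, 12.5%, 14.3% and 21.1% of all genes were called lower with it. BUB1B, the checkpoint kinase BUBR1, was nearest, at 0.990 to 1.44 RPKM in low PAP and 0.985, 0.753 and 0.641 in PH-failure. Its PH-failure libraries lay below low PAP, with a difference of -0.28 (SE 0.12, limma adjusted p = 0.0937). The pooled difference of -0.24 (adjusted p = 0.0617) passed the threshold with limma-voom (-0.53, adjusted p = 0.0298). PLK1, the polo-like kinase of mitotic entry, had 1.28 to 2.21 RPKM in low PAP, 1.95, 2.06 and 1.48 in PH-healthy and 1.78, 1.56 and 1.37 in PH-failure. BIRC5, survivin, ranged from 0.916 to 2.35 RPKM in low PAP and from 0.466 to 2.29 in the PH libraries. The kinases BUB1, AURKA and AURKB and the activator of the anaphase-promoting complex CDC20 all had medians under 1 RPKM in low PAP.

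These transcripts varied together from animal to animal. In 13 genes of S phase and mitosis, CCNB2 left out, low-PAP replicate 1 was the highest of the 6 low-PAP libraries for 12 and low-PAP replicate 3 the lowest for 9. The 13 were grouped after their values were seen, so the counts describe these libraries only. PH-healthy replicate 2 was the highest of its group for 12 and PH-healthy replicate 3 the lowest for 11. PH-failure replicate 1 was the highest of its group for 10 and PH-failure replicate 3 the lowest for 11. Summed over the 13, low-PAP libraries held 6.65 to 15.6 RPKM (9.73 ± 3.16, SD, n = 6), PH-healthy libraries 9.46, 14.5 and 7.11, and PH-failure libraries 10.6, 8.10 and 6.01. The ranges of the 3 groups overlapped. Low-PAP replicate 1 stood a median of 2.03 times above the median of the other low-PAP libraries, from 1.08 times for PLK1 to 3.63 times for CDC20. CCNB2 had the same highest and lowest libraries in low PAP and in PH-healthy, but in PH-failure it was highest in replicate 3, the library that was lowest for 11 of the 13. In 49 other mitosis genes of a wider list, low-PAP replicate 1 was the highest of its group for 24, PH-healthy replicate 2 for 38 and PH-failure replicate 1 for 20. There PH-failure replicate 3 was the highest for 17 and the lowest for 23, and low-PAP replicate 5 was the lowest for 20 and low-PAP replicate 3 for 18.

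**Figure D4:**
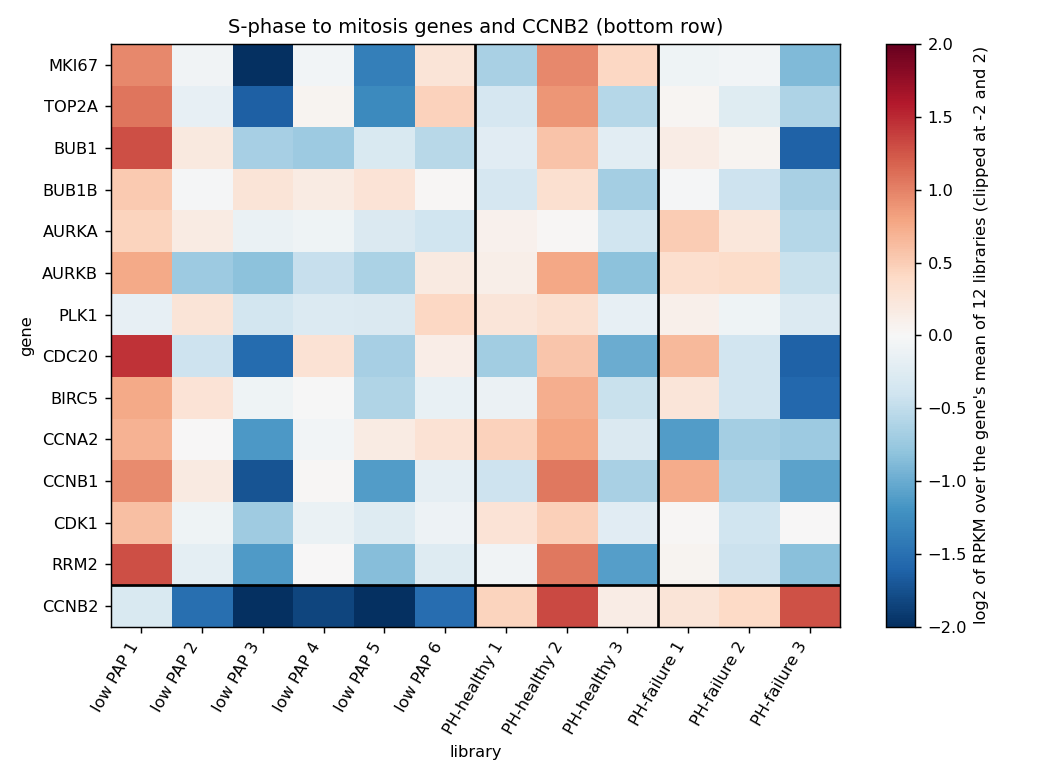
Heat map of 13 S-phase and mitosis genes and CCNB2 (rows) in the 12 libraries (columns), coloured by the log2 of RPKM over the gene's mean of 12 libraries, clipped at -2 and 2. Low-PAP replicate 1 and PH-healthy replicate 2 are above the mean for most of the 13 genes, PH-failure replicate 3 is mostly below it, and CCNB2 is above its mean in all 6 PH libraries and below it in low PAP.

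PH-failure and PH-healthy could not be separated in these genes. None of the 28 was called between them with limma, with limma-voom or after quantile normalization, and 0.00879% of all tested genes were, a single gene. CCND2 alone had an unadjusted p under 0.05. Its limma difference was -0.56 (SE 0.16, 95% interval -0.91 to -0.22), at an unadjusted p of 0.00363 and an adjusted p = 0.9995. Its PH-failure libraries all lay below its PH-healthy libraries. CCND3 came next at 0.63 (SE 0.31), with its highest value in PH-failure replicate 3. For PCNA and CCNB2 the group means differed by less than their SDs. In CCNA2 and RBL2, as in CCND2, all PH-failure libraries lay below all PH-healthy libraries, and in 0 of the 38 genes all lay above. How often all genes separate this way was not counted, so these 3 genes are only described.

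**Figure D5:**
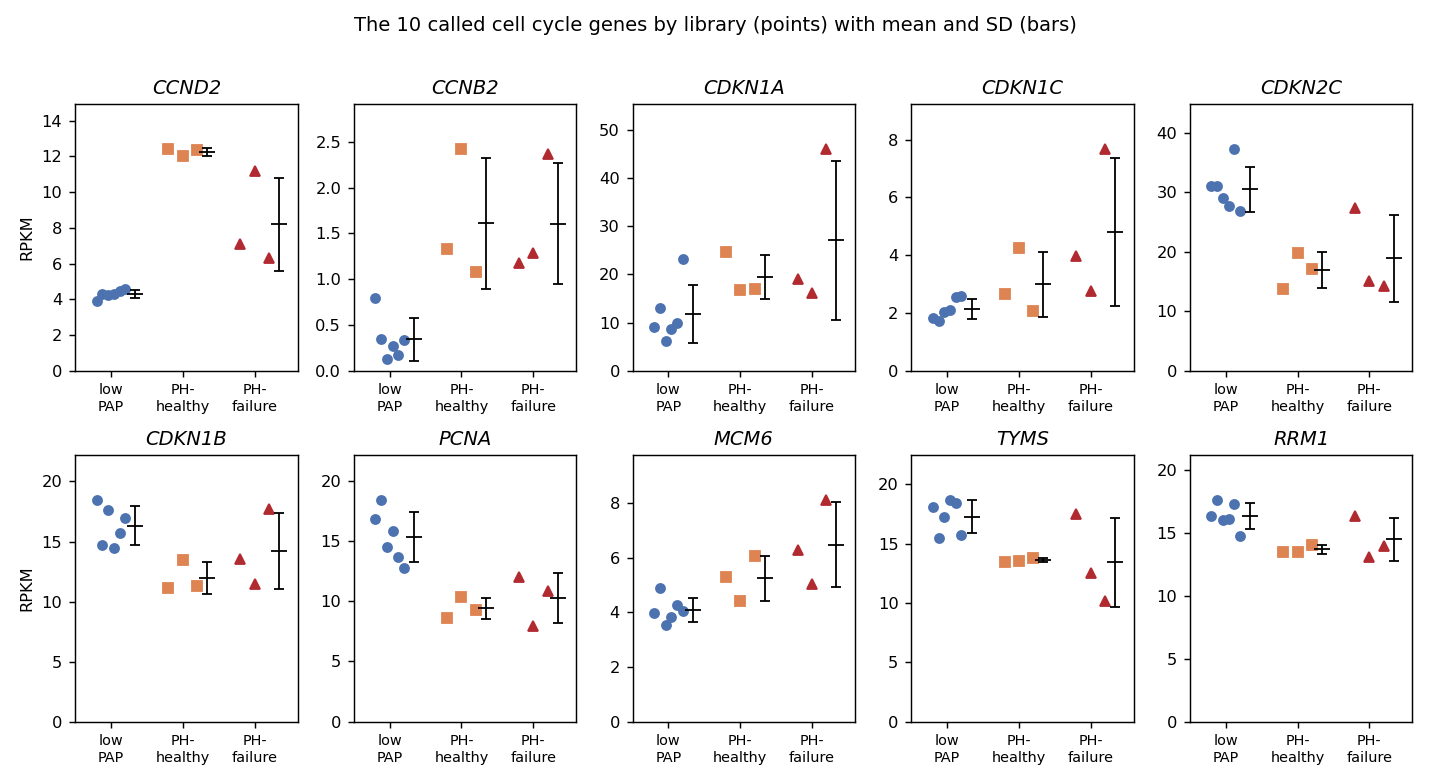
RPKM of the 10 genes called in any comparison, by group, each point a library, with the group mean (dash) and SD (bar) beside the points and an axis from 0 for each gene. CCND2, CCNB2 and PCNA show no overlap between the 6 low-PAP and the 6 PH libraries, while in CDKN1A, CDKN1B, CDKN2C, TYMS and RRM1 at least 1 PH-failure library lies within the low-PAP range.

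Wider lists of related genes gave a similarly mixed account. Of 45 other control genes, 34 were tested, with 6 higher and 4 lower in PH-failure and 5 and 3 in PH-healthy, beside 28% and 5.79% of all genes in PH-failure and 26.6% and 8.15% in PH-healthy. Without PH-failure replicate 3 the PH-failure counts were 2 higher and 3 lower, beside 1283 and 257 of all 11374 tested genes. Quantile normalization gave 1 higher and 7 lower in PH-failure, beside 9.96% and 12.5% of all genes. In PH-healthy it gave 2 and 7, beside 12.5% and 14.3%. Besides CDKN2B, the higher genes led with SKP2, a subunit of the ligase that destroys p27, at 0.44 in PH-failure (limma adjusted p = 0.00892) and 0.54 in PH-healthy (adjusted p = 0.00300). LIN54, a DNA-binding subunit of the complex that silences or activates cell cycle promoters, gave 0.68 and 0.86. E2F3, an activating E2F, gave 0.52 and 0.63, and RBL1, p107, gave 0.42 in PH-healthy. SKP2, E2F3 and RBL1 were under 1 RPKM in all 6 low-PAP libraries, so like CCNB2 they entered the test only through PH libraries. After quantile normalization CDKN2B stayed called in both PH groups and LIN54 in PH-healthy, and the calls of SKP2, E2F3 and RBL1 ended in both. The lower genes were led by CCNG1, cyclin G1, a p53 target, which fell by 0.78 in PH-failure (limma adjusted p = 0.00368) and by 1.08 in PH-healthy (adjusted p = 0.000506). PLK2, a kinase that stress induces, fell by 1.06 and 0.88. LIN9 fell by 0.42 and GADD45A by 0.64 in PH-failure, and GADD45B by 0.82 in PH-healthy. CCNG1 was thus lower in PH-failure while CDKN1A, another p53 target, was called higher there. The GADD45A call ended under quantile normalization. Without PH-failure replicate 3, GADD45A gave -0.23 in PH-failure (limma adjusted p = 0.254), LIN9 -0.41 (0.102), PLK2 -0.70 (0.0639), E2F3 0.39 (0.138) and LIN54 0.58 (0.0582), none of them called, while CDKN2B (1.07), SKP2 (0.43) and CCNG1 (-0.85) stayed called.

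Of 41 other replication genes, 32 were tested. In PH-failure 5 were higher and 4 lower, beside 28% and 5.79% of all genes, and in PH-healthy 3 were higher and 5 lower, beside 26.6% and 8.15%. After quantile normalization these were 2 higher and 13 lower, beside 9.96% and 12.5%, and 1 and 14, beside 12.5% and 14.3%. Without PH-failure replicate 3 only RPA1 stayed called higher and RFC3 lower in PH-failure, beside 1283 and 257 of all 11374 tested genes. RPA1, the large subunit of the protein that coats single-stranded DNA, rose by 0.48 in PH-failure and 0.45 in PH-healthy (limma adjusted p = 0.00639 and 0.00730), while its small partner RPA3 fell by 0.41 and 0.48. RRM2B, the p53-inducible subunit of ribonucleotide reductase, rose by 0.67 and 0.72, and POLA1, the catalytic subunit of polymerase alpha, by 0.37 in each; quantile normalization ended the calls of both genes. MCM10, a helicase partner, rose by 0.90 in PH-failure (adjusted p = 0.0128), but passed the minimum only through PH libraries. RFC3, a subunit of the loader of PCNA, fell by 0.77 and 0.81, and DUT, which removes dUTP and supplies TYMS with its substrate, fell by 0.61 and 0.74. RFC5 fell by 0.45 in PH-failure, and GMNN, geminin, an inhibitor of replication licensing, by 0.58 in PH-healthy. In the pooled comparison PCNA, RFC3, DUT and TYMS were all called lower.

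Of 49 other mitosis genes, only 20 were tested. In PH-failure 0 were higher and 2 lower, beside 28% and 5.79% of all genes: CKS2, a CDK adaptor, fell by 0.70 (limma adjusted p = 0.0357) and SPC24, a kinetochore protein, by 0.72 (adjusted p = 0.0433). Neither was called without PH-failure replicate 3 (-0.40, adjusted p = 0.199, and -0.59, adjusted p = 0.164). In PH-healthy 2 were higher and 0 lower, beside 26.6% and 8.15% of all genes: SMC2, a condensin subunit, rose by 0.44 (limma adjusted p = 0.0106) and PRC1, which bundles spindle microtubules, by 0.49 (adjusted p = 0.0401). SMC2 reached 1 RPKM in 1 low-PAP library and in all 6 PH libraries, so it passed the minimum through the PH groups. The PH-healthy calls ended under quantile normalization. It gave 0 higher and 5 lower in PH-failure, beside 9.96% and 12.5% of all genes, and 0 and 2 in PH-healthy, beside 12.5% and 14.3%.

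The authors' deposited table gives its own fold change between high and low PAP for each gene, with a p and a false discovery rate. Its group means correspond to more libraries than the 12 used here. Among the 38 genes, 2 have in the authors' deposited table a false discovery rate under 0.05, CDKN2C (fold change -1.60, 0.000763) and PCNA (-1.48, 0.0438). CCND2 stands there at a fold change of 2.14 with a false discovery rate of 0.0981, CCNB2 at 4.15 with 1, and CDKN1A at 1.85 with 0.292, all in the authors' deposited table.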

How the data were processed

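Right ventricle RNA of 12 steers was extracted with Trizol and sequenced from standard Illumina libraries, per the labels' protocols. The authors deposited 1 table of RPKM values for 24616 genes and 12 libraries, normalized to exon length and mapped reads per the file headers, with a fold change, a p-value and a false discovery rate of their own. The authors' fold change was deposited as a signed score: the ratio of their group means, negative where high PAP is lower. Not given in the sources used here are the test behind the authors' p-values, the aligner, the handling of strand and multiply mapped reads, and the genome build, so coordinates are the table's own.

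Values were tested as log2(RPKM + 1) with limma 3.58.1 (robust, variance trend; R 4.3.3, statmod 1.5.0) in 1 model of 3 groups without covariates, on 11374 genes of at least 1 RPKM in at least 3 libraries, with Benjamini-Hochberg adjustment over all of them. Reads were recovered from the steps between a gene's values, since each step is 1 read: 100% of 17284 genes above 0 came out whole within 0.05 reads, with a median of 370 reads per tested gene. limma-voom was run on those reads (at least 10 in at least 3 libraries, 13353 genes) and called 3675 genes higher and 678 lower in PH-failure, and 3474 and 905 in PH-healthy. The other alternatives were the scaling, the pseudocount, the filter, the samples fitted, library series, the replicate number and leaving out each library. On simulated data with a dispersion of 0.05, limma recovered 79% of genes changed 2-fold in PH-failure against low PAP (11179 genes run). The shares were 80% in PH-healthy against low PAP (11172), 58% between the PH groups (11194) and 95% in the pooled comparison (11185). In low PAP the coefficient of variation was 5.32% for MCM7 and 5.44% for CCND2, but 46.6% for CCND1 and 51.3% for CDKN1A. The shares hold for the simulated spread only and do not give the power for the more variable genes.

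The list of 38 genes was made by function, and it and the other lists were chosen with earlier results of these data known. Genes called in any comparison, and MKI67, TOP2A, CCND1, CDKN1A, PCNA and CDK1 whatever their result, are given in every library; from the wider lists, up to 4 called genes per direction and comparison are named by smallest p. Figures were drawn with matplotlib 3.10.9.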

Additional observations from a re-analysis of the deposited data

Results flagged for a closer look

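In 5 of the 38 genes the highest of the 6 low-PAP libraries lay farther from the others than Dixon's 95% limit allows, and in each it was low-PAP replicate 1. Chance flags about 1 in 20 groups, and the 5 genes belong to a class whose levels vary together, so they are not independent flags. CCNB2 was at 0.792 RPKM there (next highest 0.343), CDK1 at 1.54 (0.953), RRM2 at 1.63 (0.675), BUB1 at 0.888 (0.416) and CDC20 at 0.859 (0.385). Low-PAP replicate 1 also had the highest share of mitochondrial reads, 29.9% of its exon reads against 17.8% in the lowest library, and the part of this in its high values was not tested. Without it, the CCNB2 difference was 1.03 in PH-failure and 1.03 in PH-healthy (limma adjusted p = 0.00528 in the former).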

How the results depend on the processing

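No called difference of the 38 genes reversed under any setting. Counts of called genes moved with the scaling. In PH-failure against low PAP, 5 higher and 2 lower became 2 and 7 with quantile normalization and 3 and 6 with median-ratio scaling. For PH-healthy, 3 lower became 7 with either, and 2 higher stayed 2. Pooled, 5 and 5 became 3 and 10, and 3 and 8. Over all genes, median-ratio scaling called 1530 higher and 1681 lower in PH-failure, 1824 and 1861 in PH-healthy, and 2504 and 2542 pooled. Among the 38 genes, leaving out 1 library at a time gave 2 to 5 higher and 0 to 3 lower in PH-failure. It gave 2 to 3 and 2 to 4 in PH-healthy, and 4 to 8 and 3 to 5 pooled. The pooled 8 came without low-PAP replicate 2. The pooled 3 came without low-PAP replicate 1, 3, 4 or 5, PH-healthy replicate 1 or 3 or PH-failure replicate 2. Over all genes, leaving out 1 library gave 1283 to 3832 higher and 257 to 929 lower in PH-failure. The same ranges were 1508 to 3588 and 382 to 1092 in PH-healthy, and 3490 to 4646 and 932 to 1381 pooled. PH-failure calls over all genes fell from 3190 higher and 658 lower to 1283 and 257 without PH-failure replicate 3. None of the 38 genes was called between PH-failure and PH-healthy under any setting. Same-numbered animals of different groups are different animals, and their deviations correlated at -0.26 to 0.19, so the numbers do not pair them. With the replicate number as a block, calls were 1 higher and 0 lower in PH-failure, 1 and 1 in PH-healthy and 3 and 2 pooled. Over all 11374 genes they were then 1222 and 157, 1514 and 320, and 2517 and 510. CCND2 in all 3 comparisons with low PAP, PCNA in PH-healthy and pooled, and CCNB2, CDKN2C and CDKN1A pooled kept their calls under every setting. Where a call changed, the cause was not tested. edgeR and DESeq2 were planned for whole reads and were not run, since the deposited unit is RPKM; limma-voom, chosen after seeing the data, took their place. The 10 untested genes had as few as 5 reads in a library, which limits what can be said of MKI67, E2F1 and the mitotic kinases.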
